A study of Mus musculus with 30 samples.

Results

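The cytosolic ribosomal protein genes described here were the protein-coding genes whose mouse symbol starts with Rpl or Rps followed by a digit, together with Rplp0, Rplp1, Rplp2 and Rpsa. Ribosomal protein S6 kinase genes and annotated pseudogene symbols were left out, and a gene needed a total of at least 300 counts over the 30 libraries. The symbol rule matched 86 genes and the count minimum kept 82 of them, out of 51826 identifiers in the whole table. Of the 82 genes, 31 encode small subunit proteins, 46 encode large subunit proteins and 5 are paralogs or other genes with such a symbol. Those 5 are Rpl7l1, Rpl22l1, Rpl36al, Rps27l and Rps19bp1, the last of which encodes a nucleolar regulator and not a protein of the ribosome. The members closest to the minimum were Rpl24 with 368 counts and Rpl36al with 573 counts. The genes left below it were Rpl3l with 139, Rps27rt with 63, Rpl39l with 17 and Rpl10l with 10 counts.

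The study measured RNA in the livers of male mice, labelled C57BL16, that received either 0.2 Gy of 56Fe ions at 600 MeV/n or no irradiation. 56Fe ions are heavy charged particles found in galactic cosmic rays. Left liver lobes were taken 30, 60, 120, 270 and 360 days after exposure, which the labels call months 1, 2, 4, 9 and 12, from unirradiated controls at the same times. The 10 groups therefore differ in arm and month and share strain, sex and tissue. Each group held 3 livers and each liver gave 1 library, prepared after removal of ribosomal RNA. Nothing in the labels says how cages, irradiation days or library batches were spread over the groups, so the p-values cover the spread between these livers as sampled.

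A ribosome joins a small subunit, which reads the messenger RNA, to a large subunit, which forms the peptide bonds. Most ribosomal proteins are present in 1 copy per ribosome, and cells keep the proteins in balance in part by controlling translation of their messenger RNAs. These messenger RNAs start with a C followed by a run of pyrimidines, the terminal oligopyrimidine tract, through which the mTORC1 kinase and the RNA-binding protein Larp1 set their translation and stability. The liver makes most plasma proteins and its hepatocytes are rich in ribosomes.

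The start of the transcript is shown for 8 members because that tract is the shared sequence feature of the family. Promoter windows from RefSeq on the GRCm38.p6 build were matched by symbol to 62 of the 82 members. Each line gives 15 bases before and 15 bases from the annotated transcription start, 5′ to 3′ on the gene's strand, with the C and the pyrimidines that follow it in capitals. Rps21, Rpl14 and Rpl38 come first because they were lower in irradiated livers at month 2. Rps6, the small subunit target of the S6 kinases, and Rps18, among the most abundant members, follow, then Rps10 and Rpl15 with long tracts, and Rpl28, whose level did not pass the test between months 2 and 4 in either arm.
Rps21 (chr2:180257364-180257393, plus strand): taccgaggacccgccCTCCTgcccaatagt
Rpl14 (chr9:120571502-120571531, plus strand): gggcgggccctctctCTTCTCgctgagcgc
Rpl38 (chr11:114668565-114668594, plus strand): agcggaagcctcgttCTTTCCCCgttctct
Rps6 (chr4:86857353-86857382, minus strand): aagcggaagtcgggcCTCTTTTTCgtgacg
Rps18 (chr17:33955651-33955680, minus strand): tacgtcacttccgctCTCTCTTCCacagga
Rps10 (chr17:27635230-27635259, minus strand): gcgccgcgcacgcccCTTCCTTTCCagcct
Rpl15 (chr14:18270972-18271001, minus strand): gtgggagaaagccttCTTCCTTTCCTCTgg
Rpl28 (chr7:4792950-4792979, plus strand): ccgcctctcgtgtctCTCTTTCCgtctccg

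A C followed by at least 4 pyrimidines stood at the annotated start of 13 of the 62 members (21%), against 3.01% of the 27025 genes in the promoter table. Within 5 bases of the annotated start the share was 46.8% of the members (29 of 62) and 21.2% of all genes. Annotated starts can be off by a few bases. For Rps2 (chr17:24720048-24720077, plus strand) a tract begins 4 bases after the annotated start, and the start used in these livers was not measured.
Rps2: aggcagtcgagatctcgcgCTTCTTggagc
The binding motif of ETS factors, CCGGAAG searched on both strands of the 300-base promoter window, was found for 25 of 62 members (40.3%) and 9.93% of all genes. The YY1 motif AAGATGGC, searched the same way, was found for 6 of 62 members (9.68%) and 3.19% of all genes. At month 2 the 13 members with the tract at the annotated base had a median log2 difference between the arms of -0.64, and the 49 without it had -0.58, so members with and without an annotated tract sat close together.

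The libraries held between 7995248 and 20215995 counts, and the 82 genes together took 0.293% to 1.04% of them. The hepatocyte markers Alb, Apoa1, Apob, Ttr, Serpina1a and Cyp2e1 were abundant in every library, and no marker of the other liver cell types searched was at 0 in all libraries. Many ribosomal protein genes have near-identical pseudogene copies: 59 of the 82 have at least 1 named pseudogene, and 53 have fewer than 50% of their 50-base words unique to the gene. The median unique share was 39.4%, and it ran from 1.35% for Rps27, which shares 98.6% of its words with its copy Rps27rt, to 100% for Rps19bp1. A further source of uncertainty is overlap, since 48 members overlap another annotated gene, 21 of them a gene on the opposite strand. Reads from such copies and overlaps cannot be assigned with certainty, so levels of single members with low uniqueness are uncertain.

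All 82 members passed the filter on low counts. Levels per length, in CPM/kb (library-scaled counts per kilobase of transcript) averaged over all libraries, had a median of 89.9 among the members. Rplp1, which belongs to the stalk of the large subunit, had the highest level at 353 CPM/kb, followed by Rps2 at 254 and Rps18 at 238. Rpl24 at 1.32, Rpl36al at 2.63 and Rpl13a at 4.72 CPM/kb had the lowest. The shares of unique 50-base words of these 3 were 18.3%, 36.7% and 42.6%, and the order is that of the counted reads.

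The summed level of the 82 genes differed more between months than between the arms. The 3 control livers of month 1 had sums of 4279, 3453 and 2200 CPM (counts scaled to library size), those of month 2 had 5911, 6845 and 5313 CPM, and those of month 4 had 10227, 9845 and 11545 CPM. The sums were 9678, 7953 and 9545 CPM in the month 9 controls and 6317, 7105 and 5193 CPM in the month 12 controls. The irradiated livers of month 1 had 2868, 3464 and 3243 CPM, those of month 2 had 4008, 3751 and 3905 CPM, and those of month 4 had 7988, 8574 and 8176 CPM. Month 9 gave 12053, 6751 and 7967 CPM and month 12 gave 7375, 6897 and 5914 CPM in this arm. Both arms were lowest at month 1 and had risen by month 4, and the arms did not overlap at months 2 and 4, where every irradiated liver lay below every control. The irradiated group at month 9 was the most spread, with 1 liver (replicate 1) far above the other 2.

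**Figure D1:**
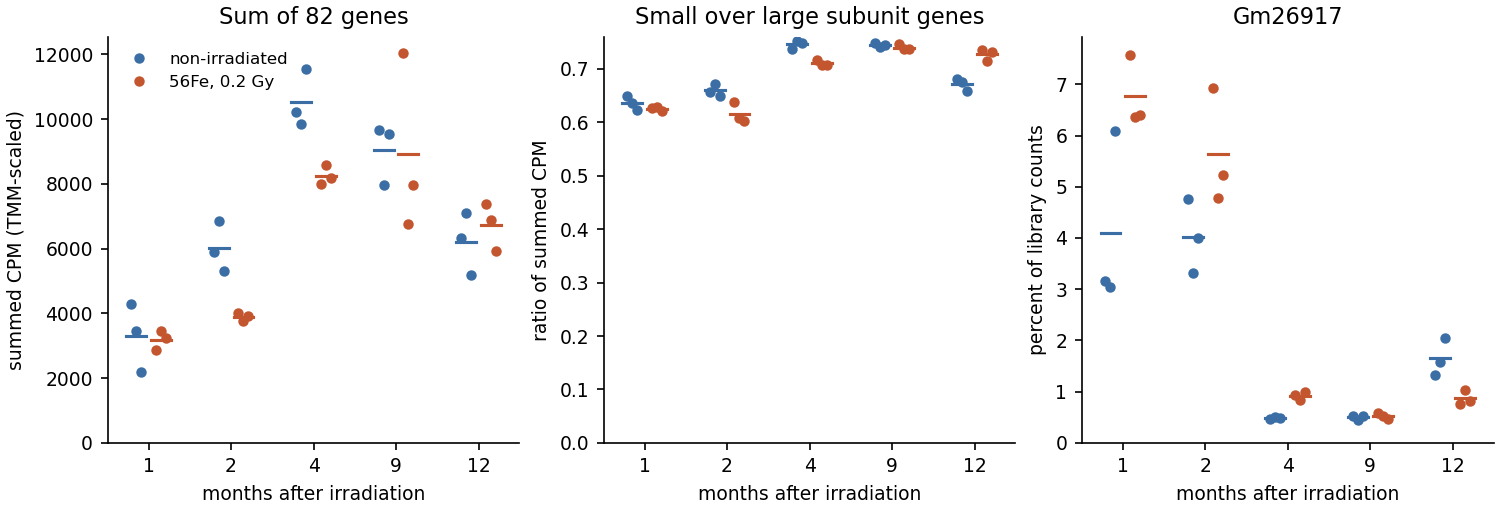
Summed CPM of the 82 genes, ratio of small to large subunit sums, and percent of counts taken by the noncoding RNA Gm26917, by month after exposure, with 1 point per liver and bars at group means. The summed CPM of irradiated livers lies below that of controls at months 2 and 4, and the Gm26917 percent runs the other way.

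The single genes followed the sum. For 66 of the 82 members the control group at month 4 had the highest mean of the 10 groups. The lowest mean was in irradiated livers at month 1 for 50 members and in control livers at month 1 for 31. These counts were not made over all genes, so the order of the groups need not be particular to the members. The median fold between a member's highest and lowest group was 3.43. The flattest members were Rpl24 at 1.60-fold, Rpl6 and Rpl29 at 1.78-fold each and Rpl19 at 1.81-fold.

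The summed messenger RNA levels of small and large subunit genes did not keep a fixed ratio. The ratio of summed small to summed large subunit CPM ran from 0.624 to 0.649 in controls at month 1 and from 0.650 to 0.672 at month 2. It rose to 0.738 to 0.753 at month 4, stayed at 0.741 to 0.748 at month 9, and was 0.659 to 0.682 at month 12. The irradiated livers had ratios of 0.622 to 0.628 in month 1, 0.603 to 0.637 in month 2 and 0.707 to 0.716 in month 4, then 0.737 to 0.746 in month 9 and 0.715 to 0.735 in month 12. The irradiated livers had the lower ratio at months 2 and 4 and the higher ratio at month 12, with no overlap between the arms at these 3 months. The ratio itself was not tested. The share of counts of Gm26917 was also fully apart between the arms at these 3 months, in the opposite order. At month 12 it was 1.33% to 2.04% in controls and 0.759% to 1.04% in irradiated livers. Its part in the ratio was not tested.

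At month 2, irradiated livers had less messenger RNA of ribosomal proteins of both subunits. Of the 82 members, 25 were lower and 0 higher in 56Fe livers (edgeR quasi-likelihood test, Benjamini-Hochberg adjusted over 19685 genes, threshold 0.05), or 30.5% of the members, while 1.8% of all genes tested were lower. The median log2 difference was -0.61, which is 1.53-fold lower, against -0.02 over all genes, and 80 of 82 members lay below 0. In 70 of the 82 members every irradiated liver lay below every control, a count that was not made over all genes. At an unadjusted p under 0.05 in the edgeR test there were 61 members (74.4%) and 21.6% of all genes. The lower genes comprised 13 of 31 small subunit genes and 12 of 46 large subunit genes, and 0 of the 5 paralogs and others, whose medians were -0.68, -0.56 and -0.39.

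Rps2, a small subunit protein near the messenger RNA entry channel (chr17:24718116-24721929), measured 212, 213 and 175 CPM in the 3 controls and 127, 115 and 111 CPM in the 3 irradiated livers. The arms were apart by a wide margin, with a log2 difference of -0.76 ± 0.16 (SE), or 1.70-fold lower (edgeR adjusted p = 0.0127). Rps4x, the X-linked copy of a small subunit protein (chrX:102184941-102189394), measured 95.9, 98.6 and 96.0 CPM in controls and 51.4, 51.7 and 54.2 CPM in irradiated livers. Both groups of Rps4x were tight, and the difference was -0.89 ± 0.19 on the log2 scale (edgeR adjusted p = 0.0127).

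Among large subunit genes, Rpl7 (chr1:16101295-16104662) measured 190, 185 and 163 CPM in controls and 105, 97.2 and 107 CPM in irradiated livers (log2 -0.80 ± 0.17, edgeR adjusted p = 0.0127). Rpl10, which joins the large subunit late in its maturation (chrX:74270812-74273135), measured 135, 135 and 126 CPM against 74.1, 72.1 and 70.0 CPM (log2 -0.87 ± 0.19, edgeR adjusted p = 0.0133). Rpl22, which has the paralog Rpl22l1 (Rpl22 at chr4:152325742-152334071), measured 46.1, 61.9 and 43.9 CPM against 27.5, 27.9 and 29.9 CPM (log2 -0.83 ± 0.18, edgeR adjusted p = 0.0132). In each of these 3 genes the irradiated livers were close to each other and well below the lowest control. Rpl14, whose start is printed above (gene at chr9:120571444-120574654), was more spread in controls at 93.1, 132 and 72.6 CPM, against 54.6, 53.1 and 62.9 CPM (log2 -0.80 ± 0.18, edgeR adjusted p = 0.0162). Rps21, the member with the largest difference, measured 43.5, 63.4 and 35.6 CPM in controls and 20.9, 20.5 and 21.6 CPM in irradiated livers (log2 -1.18 ± 0.30, edgeR adjusted p = 0.0301).

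The stalk proteins, which recruit translation factors to the large subunit, did not all pass the test. Rplp0, the base of the stalk, measured 197, 203 and 176 CPM in controls and 113, 123 and 104 CPM in irradiated livers (log2 -0.76 ± 0.21, edgeR adjusted p = 0.0348). Its partner Rplp1 had a log2 difference of -0.52 (edgeR adjusted p = 0.252) and Rplp2 one of -0.32 (edgeR adjusted p = 0.307). Rps6 (-0.64) and Rps27a (-0.67), which is made as a fusion with ubiquitin, each had an edgeR adjusted p of 0.0508. Rpl5 and Rpl11, the ribosomal proteins that hold Mdm2 when ribosome assembly fails, had -0.41 and -0.36 (edgeR adjusted p = 0.159 and 0.365). Rpsa, the laminin receptor precursor, had -0.55 (edgeR adjusted p = 0.129). The members with a value above 0 were Rpl23a (0.43) and Rpl24 (0.44), neither past the threshold. Rpl22l1 had a difference of -0.02 (edgeR adjusted p = 0.971), while its paralog Rpl22 was lower; whether the 2 differ from each other was not tested.

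**Figure D2:**
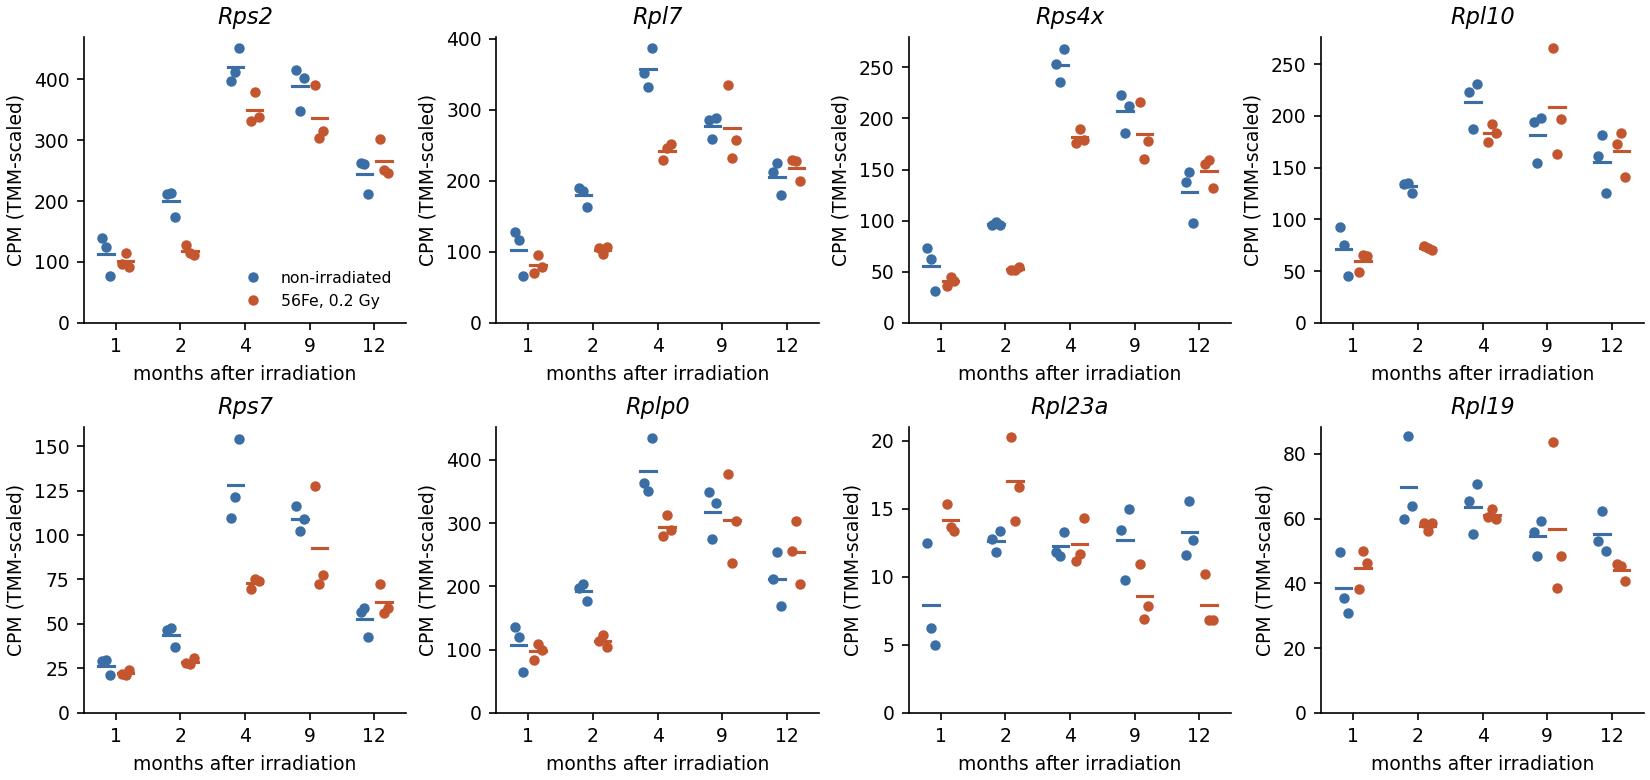
CPM of Rps2, Rpl7, Rps4x, Rpl10, Rps7, Rplp0, Rpl23a and Rpl19 by month, with 1 point per liver in each arm. In Rps2, Rpl7, Rps4x, Rpl10 and Rplp0 the irradiated livers sit below the controls at month 2, while Rpl23a lies higher in irradiated livers at month 1 and Rpl19 shows no rise from month 2 to month 4.

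Genes with related roles were mixed at month 2. Rack1, a scaffold protein bound to the small subunit whose symbol falls outside the rule, fell from 202, 181 and 152 CPM in controls to 115, 108 and 116 CPM (log2 -0.66, edgeR adjusted p = 0.0454). Fau, a ribosomal protein gene of the small subunit, had -0.59 (edgeR adjusted p = 0.0745). Of 17 other messenger RNAs known for an oligopyrimidine start, 9 were lower and 1 higher, with a median of -0.57. The lower ones were the elongation factor genes Eef1a1, Eef1b2, Eef1d and Eef2, the initiation factor genes Eif3e, Eif3f, Eif3h and Eif4b, and Npm1. Eef1a1 had a log2 difference of -0.90 (edgeR adjusted p = 0.0127) and Eef2 one of -0.64 (edgeR adjusted p = 0.0310). The higher one was Hnrnpa1, at 0.53 (edgeR adjusted p = 0.0458), whose arms overlapped. Ribosome biogenesis genes, which make and process ribosomal RNA, numbered 0 called of 47, with a median of -0.13. Of 25 genes of the mTORC1 pathway only Lamtor5 passed the test, and it was lower. Of 77 genes for proteins of the mitochondrial ribosome, Mrpl34 and Mrpl39 were lower and 0 were higher, with a median of -0.25, a share of genes close to the 1.8% lower among all genes.

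Other quantities moved with the month 2 difference. The share of counts of Gm26917, an abundant noncoding RNA gene, was 3.32% to 4.76% in controls and 4.79% to 6.93% in irradiated livers. Malat1, a nuclear noncoding RNA, was 4533 to 5764 CPM in controls and 7943 to 9750 CPM in irradiated livers, and genes of the mitochondrial genome took 3.56% to 5.09% and 5.39% to 7.19% of counts. The 6 hepatocyte markers, 0 of which passed the test, summed to 71305 to 80535 CPM in controls and 60643 to 68937 CPM in irradiated livers. The 5 erythroid markers, again with 0 called, summed to 102.6 to 137 CPM and 70.4 to 81.5 CPM. Kupffer cell (6 genes) and stellate cell (6 genes) sums were lower in irradiated livers, at 136 to 166 against 174 to 360 CPM and 253 to 270 against 285 to 319 CPM, with 0 called in either list. The 4 cholangiocyte markers (0 called) summed to 9.84 to 13.3 CPM in controls and 6.99 to 7.96 CPM in irradiated livers, and the 4 neutrophil markers (0 called of 3 tested) to 1.54 to 33.3 and 0.588 to 0.894 CPM. The 5 sinusoidal endothelium markers summed to 238 to 258 CPM in controls and 269 to 278 CPM in irradiated livers, with 0 called, and of the 4 B cell markers, which summed to under 6 CPM in every library of this month, 1 was higher. In bulk tissue fewer cells of a type and less RNA per cell cannot be told apart. The part of cell makeup, Malat1 and mitochondrial RNA in the result was not tested. With the log2 of the Gm26917 share as a covariate 0 of the 25 calls remained and the median was -0.44. The arms did not overlap in this share at month 2, so the share and the arm cannot be told apart there.

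The month 2 calls also rested on few livers. Leaving out control replicate 2, irradiated replicate 1 or irradiated replicate 3 of month 2 left 0 called members, and leaving out control replicate 1, control replicate 3 or irradiated replicate 2 left 12, 16 and 11. The count rose to 41 without control replicate 3 of month 1 and to 39 without irradiated replicate 1 of month 9. In the other direction, limma voom called 59 members, and so did edgeR on the 6 libraries of month 2 alone. The shares of all genes called in these fits are not given here. The median stayed below 0 in all of the 39 settings run, between -0.74 and -0.44.

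At month 4 the arms were closer. The members' median log2 difference was -0.33 against 0.04 over all genes, and 80 of 82 lay below 0. In 61 members every irradiated liver lay below every control, a count that was not made over all genes. At an unadjusted p under 0.05 in the edgeR test there were 19 members (23.2%) and 19.1% of all genes. Only 2 members (2.44%) passed the edgeR test, both lower, against 1.77% lower among all genes tested, so the share called was near the background. Rps7, a small subunit protein that also binds Mdm2 (chr12:28630854-28635953), measured 109, 121 and 154 CPM in controls and 69.7, 75.3 and 74.0 CPM in irradiated livers (log2 -0.81 ± 0.17, edgeR adjusted p = 0.0103). Rpl7l1, a paralog of Rpl7 that acts in assembly of the large subunit (chr17:46773907-46782672), measured 86.5, 91.2 and 105 CPM in controls. It measured 66.0, 67.2 and 70.4 CPM in irradiated livers (log2 -0.47 ± 0.14, edgeR adjusted p = 0.0487). In both genes the arms were fully apart, and Rpl7 itself had -0.56 (edgeR adjusted p = 0.0642). Rps7 was no longer called without control replicate 3 or irradiated replicate 1 of month 4, at adjusted p = 0.0650 and 0.0690, nor with the Gm26917 covariate. That share was 0.469% to 0.508% in controls and 0.827% to 0.985% in irradiated livers at this month, and with it as a covariate the median was -0.01 and 0 members were called. The arms did not overlap in the share, so the share and the arm cannot be told apart at this month. In the 6 libraries of month 4 alone edgeR called 34 members, and limma voom on all libraries called 11. The shares of all genes called in these fits are not given here, so the higher counts need not be particular to the members. The Rpl7l1 call ended in 17 of the 39 settings, among them the loss of any single liver of either arm at month 4. The 5 erythroid markers (0 called) summed to 318.5 to 433 CPM in controls and 203 to 260 CPM in irradiated livers at month 4, and their part was not tested. Of the ribosome biogenesis genes Rsl24d1, Pes1 and Ftsj3 were lower (3 of 47, median -0.45), and 6 of 77 mitochondrial ribosomal protein genes were lower (median -0.30).

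At month 1 Rpl23a, a large subunit protein at the exit of the peptide tunnel (chr11:78180932-78183584), was the only member called. It measured 12.5, 6.27 and 4.98 CPM in controls and 15.4, 13.7 and 13.4 CPM in irradiated livers, so the highest control came near the irradiated livers (log2 0.82 ± 0.24, edgeR adjusted p = 0.0441). Among all genes tested 1.49% were higher at this month, the members' share of 1.22% was near that, and the members' median was -0.06 against -0.03 over all genes. The call ended in 20 of 39 settings, including the loss of control replicate 2 (adjusted p = 0.198), control replicate 3 (0.162) or any irradiated liver of the month. Only 14.3% of the 50-base words of Rpl23a are unique to it, and it shares words with 29 genes. Rps27l, a p53-induced paralog of Rps27, had -0.66 (edgeR adjusted p = 0.119) and Rpl29 had 0.46 (edgeR adjusted p = 0.201).

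At months 9 and 12 no member passed the edgeR test. At month 9, 0 members were called and 3 (3.66%) had an unadjusted p under 0.05, against 16.1% of all genes at that p, while 1.66% of all genes tested were called in either direction, and the members' median was 0.02. At month 12, 0 were called, with 0.0% of all genes called, and the members' median was 0.08. At an unadjusted p under 0.05 there were 11 members (13.4%) and 13.5% of all genes, so the members' share was that of the background. DESeq2 and limma voom with sample weights called 0 members at both months. Among the 3 members with the smallest p at month 12 was Rps3, a small subunit protein at the messenger RNA entry, with 134, 153 and 95.6 CPM in controls and 215, 191 and 168 CPM in irradiated livers (log2 0.58, edgeR adjusted p = 0.211). The irradiated livers lay above the controls for Rps3 at month 12 and below them at month 2. At month 9 the smallest p values belonged to Rpl22l1 (0.62, edgeR adjusted p = 0.168), Rpl23a (-0.57, edgeR adjusted p = 0.214) and Rps27a (0.42, edgeR adjusted p = 0.276), all with overlapping arms. The ribosome biogenesis list had 6 genes higher at month 9 (Wdr12, Rpf2, Ddx21, Tsr1, Gtpbp4 and Heatr1, median 0.34) beside a median of 0.02 for the ribosomal protein genes themselves.

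**Figure D3:**
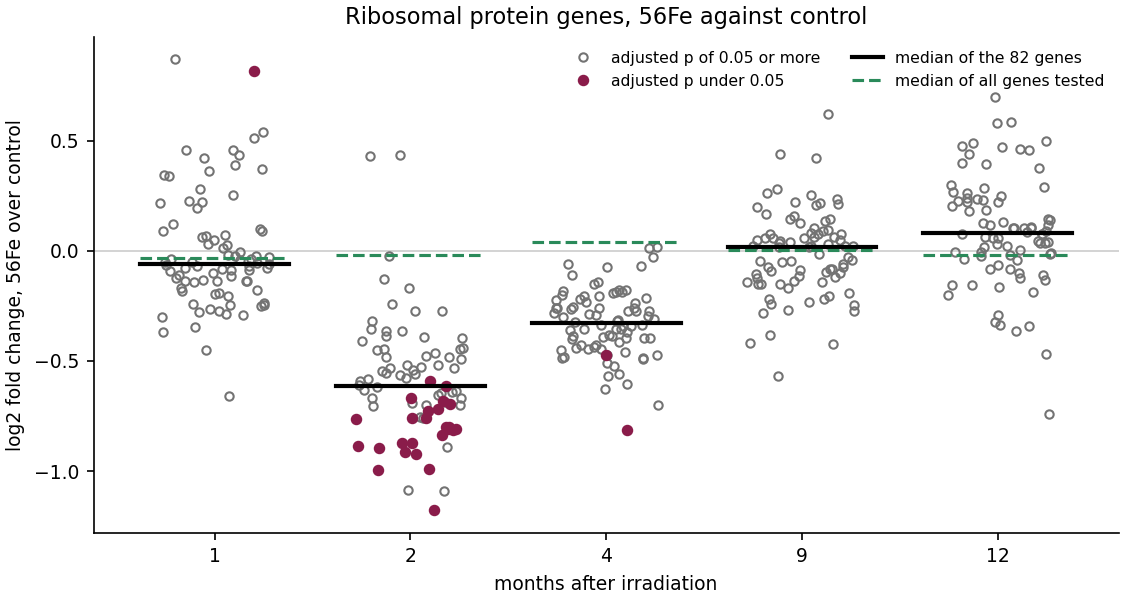
Log2 difference between 56Fe and control livers of each of the 82 genes at each month, with called genes filled, the members' median as a solid line and the median of all genes tested as a dashed line. The members' median is lowest at month 2 (-0.61), lies at -0.33 at month 4 and is near 0 at months 1, 9 and 12.

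The difference between the arms itself varied with month for 13 of the 82 members (15.9%) in an F-test of the 5 monthly differences, against 11% of all genes tested. At an unadjusted p under 0.05 there were 36 members (43.9%), against 29.5% of all genes. The smallest adjusted p belonged to Rpl23a (edgeR adjusted p = 0.0107), whose log2 difference was 0.82 and 0.43 in the first 2 months and -0.57 and -0.74 in months 9 and 12. At month 12 Rpl23a measured 11.6, 15.6 and 12.7 CPM in controls and 10.2, 6.83 and 6.81 CPM in irradiated livers. Rps3 (edgeR adjusted p = 0.0110) and Rpl22 (edgeR adjusted p = 0.0112) went the other way, from -0.87 and -0.83 at month 2 to 0.58 and 0.46 at month 12, and Rps14 (edgeR adjusted p = 0.0251) had the fourth smallest p. With the Gm26917 covariate 0 members passed this test, and over the single-library omissions between 3 and 32 did.

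The steps between neighbouring months within an arm compare separate sets of livers, and they describe differences between the months as sampled. In control livers 72 of 82 members (87.8%) were higher at month 2 than at month 1, against 5.75% of all genes tested, with a median log2 change of 0.86, or 1.82-fold. The 72 comprised 30 of 31 small subunit genes, 39 of 46 large subunit genes and 3 of the 5 others. Rplp0 rose from 136, 121 and 64.6 CPM to 197, 203 and 176 CPM (log2 0.84 ± 0.21, edgeR adjusted p = 0.00986). Rpl19 rose from 49.6, 35.4 and 30.7 CPM to 59.8, 85.6 and 63.9 CPM (log2 0.85 ± 0.20, edgeR adjusted p = 0.00716). The 10 members not called were Rpl5, Rpl13a, Rpl22l1, Rpl23a, Rpl24, Rpl27, Rpl37a, Rpl41, Rps27l and Rps29. The control month 1 libraries were uneven, with replicate 3 lowest, and 21 members were called without that library and 38 without control replicate 2 of month 2. Of the other oligopyrimidine messenger RNAs 13 of 17 rose (median 0.57), of mitochondrial ribosomal protein genes 10 of 77 (median 0.34) and of biogenesis genes 8 of 47. Cell type markers moved in the same step: the 6 hepatocyte markers summed to 49435 to 67933 CPM at month 1 and 71305 to 80535 CPM at month 2 (1 higher), and the 5 erythroid markers to 69.8 to 94.8 and 102.6 to 137 CPM (0 called). The 6 stellate cell markers summed to 217 to 245 and 285 to 319 CPM (0 called), the 4 cholangiocyte markers to 3.10 to 5.63 and 9.84 to 13.3 CPM (2 higher), and the 4 B cell markers to 5.87 to 8.90 and 1.68 to 2.92 CPM (3 lower). Of the 5 sinusoidal endothelium markers 2 were higher. Their part in the step was not tested.

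In irradiated livers the same step gave 0 called members and a median of 0.27, and 0.00508% of all genes tested were called. At an unadjusted p under 0.05 there were 8 members (9.76%) and 12.1% of all genes. DESeq2 and limma voom also called 0. The difference of the 2 steps, added after the data were seen, had a median of -0.61 with 81 of 82 members below 0, but edgeR called 0 members, while 0.991% of all genes were called. At an unadjusted p under 0.05 there were 36 members (43.9%) and 12.5% of all genes. DESeq2 called 2 members and limma voom 1. The member with the smallest p was Rps26 (log2 -1.24 ± 0.39, edgeR adjusted p = 0.147). This difference, the control step and the month 2 comparison share the control livers of month 2 and are not independent of each other.

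Between months 2 and 4 the genes rose in both arms, which share no library in this step. In controls 61 of 82 members (74.4%) were higher, against 20.3% of all genes, with a median log2 change of 0.77 while the median of all genes was -0.12. In irradiated livers 69 (84.1%) were higher, against 21.4% of all genes, with a median of 1.06, or 2.09-fold. With upper quartile factors in place of TMM the median of all genes in the control step was -0.36 and that of the members 0.53. Both medians therefore moved with the scaling, and their distance under the other settings is not given here. In both arms 59 members were called, which is 96.7% of the control calls and 85.5% of the irradiated calls. Rpl22l1 and Rps12 were called in controls alone, and Rpl4, Rpl10a, Rpl12, Rpl27a, Rpl31, Rpl36, Rpl38, Rps10, Rps18 and Rps27a in irradiated livers alone, which does not show that their steps differ.

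Small subunit genes had the larger medians in this step, 0.97 against 0.71 for large subunit genes in controls and 1.27 against 0.92 in irradiated livers, a description with no test. Rps28, a small protein near the messenger RNA exit site, rose from 20.9, 32.9 and 15.9 CPM to 52.7, 58.0 and 80.3 CPM in controls (log2 1.45 ± 0.32, edgeR adjusted p = 0.000918). In irradiated livers it rose from 10.98, 9.59 and 12.3 CPM to 52.7, 52.6 and 48.8 CPM (log2 2.23 ± 0.33, edgeR adjusted p = 1.46e-05). Rpl41, the shortest protein of the large subunit, went from 24.9, 38.7 and 22.6 CPM to 92.9, 82.4 and 120 CPM in controls (log2 1.77 ± 0.29, edgeR adjusted p = 4.86e-05). It went from 21.3, 16.1 and 20.4 CPM to 83.1, 89.4 and 81.8 CPM in irradiated livers (log2 2.14 ± 0.30, edgeR adjusted p = 5.81e-06). For both genes and in both arms, every month 4 liver lay above every month 2 liver. Rps3 rose by 1.42 ± 0.20 in controls and 1.77 ± 0.21 in irradiated livers on the log2 scale (edgeR adjusted p = 4.77e-06 and 2.63e-07).

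**Figure D4:**
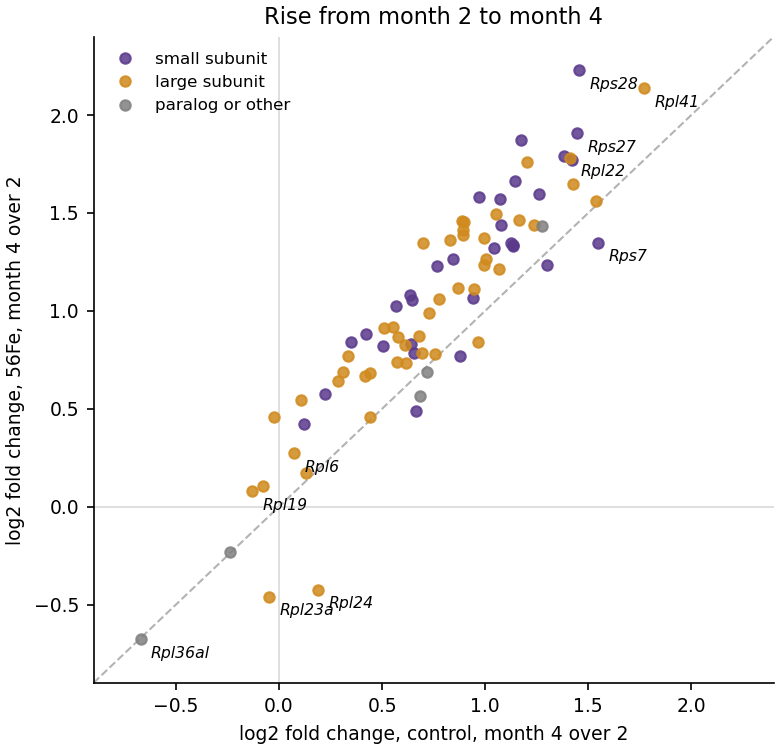
Log2 change from month 2 to month 4 in control livers (x axis) and in irradiated livers (y axis) for each of the 82 genes, coloured by subunit. Genes with the larger change in one arm have the larger change in the other, and the median of the small subunit genes is the higher one in both arms, although Rpl41, of the large subunit, has the largest change in controls.

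Members that changed most in one arm changed most in the other: across the 82 genes the 2 steps had a Pearson r of 0.91 and a Spearman rho of 0.90. Genes are not independent replicates, and both steps share each gene's length, sequence and base composition. The step had almost no relation to transcript length (r -0.00 in controls and -0.02 in irradiated livers) or to the unique share (r 0.11 in each), and a weak one to GC content (r -0.26 and -0.16). Across 14815 other protein-coding genes the relation to GC content was -0.20 and -0.10. The 11 members called in neither arm were Rpl6, Rpl19, Rpl21, Rpl23a, Rpl24, Rpl27, Rpl28, Rpl29, Rpl36al, Rps15 and Rps19bp1. Rpl19 measured 59.8, 85.6 and 63.9 CPM at month 2 and 65.3, 55.1 and 70.6 CPM at month 4 in controls (log2 -0.13, edgeR adjusted p = 0.621), in contrast to its rise one step earlier. The 11 had a median GC content of 54.3% and the 59 called in both arms one of 50.7%.

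The month 2 to 4 step came with other changes. Gm26917 fell from 3.32% to 4.76% of counts at month 2 to 0.469% to 0.508% at month 4 in controls, and from 4.79% to 6.93% to 0.827% to 0.985% in irradiated livers. Malat1 went from 4533 to 5764 CPM to 2161 to 2688 CPM in controls, and from 7943 to 9750 CPM to 2337 to 3552 CPM in irradiated livers. With the Gm26917 share as a covariate 0 members were called in either arm, and the control median became -0.29 and the irradiated one 0.18. Because every library of months 1 and 2 had a higher Gm26917 share than every library of months 4, 9 and 12, this property of the libraries and the month cannot be told apart. The 6 hepatocyte markers summed to 71305 to 80535 CPM at month 2 and 88278 to 104130.1 CPM at month 4 in controls (2 higher and 1 lower of 6), and to 60643 to 68937 and 82413 to 97164 CPM in irradiated livers (2 higher). The 5 erythroid markers went from 102.6 to 137 CPM to 318.5 to 433 CPM in controls (4 higher) and from 70.4 to 81.5 CPM to 203 to 260.3 CPM in irradiated livers (5 higher). The 6 stellate cell markers went from 285 to 319 CPM to 421 to 479.5 CPM in controls (3 higher, 1 lower) and from 253 to 269.9 CPM to 365 to 436 CPM in irradiated livers (3 higher). Of the 5 sinusoidal endothelium markers 2 were higher in each arm. The mitochondrial share of counts was 3.56% to 5.09% and then 1.63% to 2.68% in controls. The part of cell makeup and mitochondrial RNA in the step was not tested. Mitochondrial ribosomal protein genes also rose, 56 of 77 in controls (median 0.68) and 49 of 77 in irradiated livers (median 0.56, with 1 lower). Of the 47 biogenesis genes 16 were higher and 2 lower in controls (median 0.39), and 13 higher and 6 lower in irradiated livers (median 0.043). Of the 17 other oligopyrimidine messenger RNAs 10 were higher and 1 lower in controls, and 13 higher and 1 lower in irradiated livers.

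Between months 4 and 9 no member passed the test in either arm. Control livers gave 0 called members by edgeR, 2 (2.44%) at an unadjusted p under 0.05 against 6.91% of all genes, and a median of -0.21, with 0.0% of all genes called, and DESeq2 and limma voom called 0. Irradiated livers gave 0 called by edgeR, 6 (7.32%) at an unadjusted p under 0.05 against 18.9% of all genes, and a median of 0.14, with 3.74% of all genes called in either direction, and DESeq2 called 2 and limma voom 1. Of the 47 ribosome biogenesis genes 0 were called in the control step (median -0.26) and 19 were higher at month 9 in irradiated livers (median 0.53), a contrast between arms that was not tested; the higher ones included Nop56 and Nop58 of the box C/D particles.

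Between months 9 and 12 the genes fell in control livers. There 30 of 82 members (36.6%) were lower, against 5.78% of all genes tested, with a median log2 change of -0.56, and the 30 were 14 small and 16 large subunit genes. Rps7 fell from 116, 102 and 109 CPM to 56.4, 59.1 and 42.5 CPM (log2 -1.05 ± 0.17, edgeR adjusted p = 0.000199). Rpl41 fell from 102, 90.4 and 107 CPM to 43.6, 55.8 and 27.4 CPM (log2 -1.24 ± 0.29, edgeR adjusted p = 0.00524). In both genes all month 12 livers lay below all month 9 livers. Leaving out 1 library gave between 12 called members (without control replicate 3 of month 12) and 49 (without irradiated replicate 1 of month 9). Without control replicate 1 or 3 of month 9 there were 14 each, without control replicate 1 of month 12 there were 18, and without irradiated replicate 2 of month 9 there were 48. The Gm26917 share was 0.452% to 0.526% at month 9 and 1.33% to 2.04% at month 12 in these controls, and with it as a covariate 0 members were called and the median turned to 0.086. Months 9 and 12 did not overlap in the share, so the share and the month cannot be told apart in this step. Of the mitochondrial ribosomal protein genes 29 of 77 fell (median -0.39). Of the 17 other oligopyrimidine messenger RNAs 1 was higher and 1 lower (median -0.22), and of the 47 biogenesis genes 3 were higher and 4 lower (median -0.0077). In the same controls the 5 sinusoidal endothelium markers summed to 350 to 398 CPM at month 9 and 259 to 280.4 CPM at month 12, with 2 lower, and Malat1 went from 2306 to 2500.4 CPM to 3158 to 4604 CPM. Their part in the step was not tested.

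In irradiated livers the step from month 9 to 12 had a median of -0.44 and 40 members (48.8%) at an unadjusted p under 0.05 against 16.2% of all genes, but 0 called by edgeR, with 0.3% of all genes called. DESeq2 called 4 and limma voom 0. Without irradiated replicate 2 of month 9 edgeR called 26 members, and without irradiated replicate 1 of month 12 it called 3. The difference between the arms in this step, also added after the data were seen, had a median of 0.09, with 0 called by edgeR, DESeq2 or limma voom, 1 (1.22%) at an unadjusted p under 0.05 against 17.9% of all genes, and 0.945% of all genes called. The step was therefore past the threshold in controls alone and was not shown to differ between the arms.

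Ribosomal protein messenger RNAs are short, with a median principal transcript of 705 bases, and short transcripts of other genes moved in the same direction by less. At month 2 the median log2 difference between the arms of other protein-coding genes was -0.20 under 1 kb (1018 genes), -0.13 from 1 to 2 kb, -0.10 from 2 to 4 kb and -0.06 above 4 kb, beside -0.61 for the members. In the control step from month 1 to 2 the other genes under 1 kb had 0.25 beside 0.86 for the members. From month 2 to 4 they had 0.34 beside 0.77 in controls and 0.36 beside 1.06 in irradiated livers, and from month 9 to 12 in controls -0.23 beside -0.56. In each of these 5 comparisons the members' median lay further from 0 than that of any length class of other genes, as a description with no test.

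**Figure D5:**
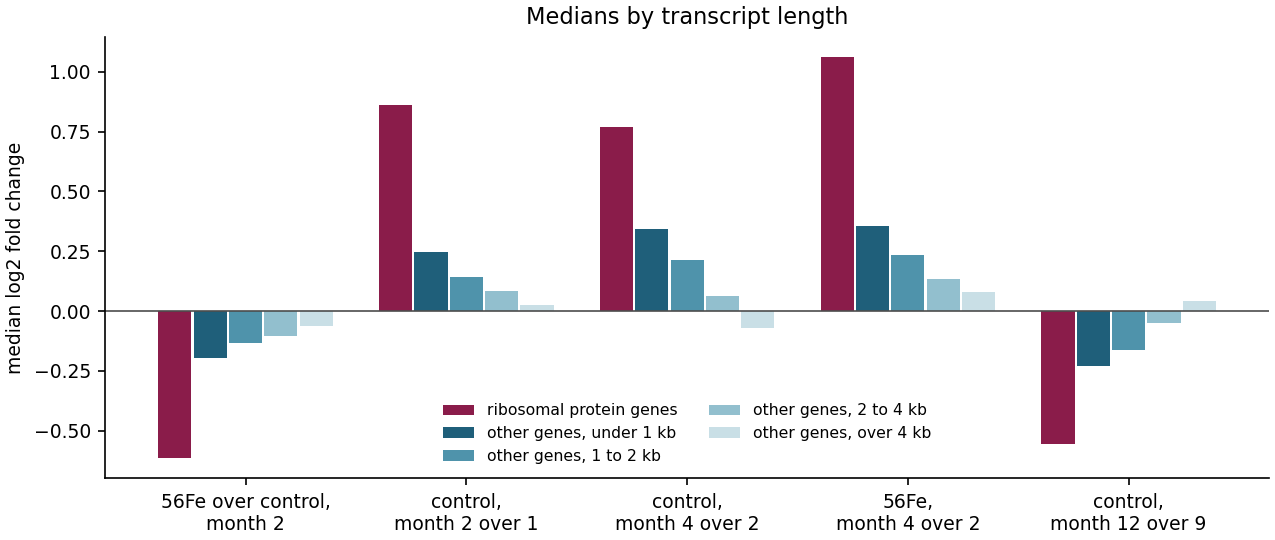
Median log2 difference of the 82 genes and of other protein-coding genes in 4 classes of transcript length, for 5 comparisons. The bar of the members is the longest in each comparison, and among the other genes the shortest transcripts have the longest bar.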

How the data were processed

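The authors deposited a table of raw read counts per gene; per the labels, total RNA was depleted of ribosomal RNA, sequenced in paired 50-base reads on the Illumina platform, aligned to GRCm38 with STAR 2.5.3a and counted by gene on a Gencode annotation. STAR's gene counts keep reads that map to 1 place, which lowers counts of genes with near-identical copies. Whether the counting used strand is not given in the sources used here. Identifiers were matched to Gencode M21 (51633 of 51826; the 193 unmatched were kept in library sizes).

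From the counts, TMM factors, library-scaled counts (CPM) and quasi-likelihood tests were computed with edgeR 4.0.16 in R 4.3.3, with 1 coefficient per group over all 30 libraries. Genes passed at a minimum count of 10 and total of 15 (19685 genes tested), and adjusted p-values (Benjamini-Hochberg, threshold 0.05) run over all of them. SE is the log2 difference divided by the square root of F. CPM/kb uses the length of the principal transcript of each gene. Alternatives were DESeq2 1.42.0, limma 3.58.1, other factors and filters, a replicate block, fits of only the libraries compared, the log2 of the Gm26917 share as covariate, and omission of single libraries.

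The members and lists were chosen with earlier results of these data known. Named genes were, per comparison of the arms, up to 6 called members in each direction with arms fully apart, or the 3 smallest p where fewer than 3 passed, the 4 smallest for the F-test, the paralogs, a fixed list with the stalk proteins, and the 3 highest and lowest levels. Rps21, Rps26, Rps28, Rpl19 and Rpl41 were added after their values were seen, as were the differences between steps.

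Replicates of a group were separate libraries (30 pairs, lowest chi-square per gene 8.60). Same-numbered livers of the 2 arms correlated at -0.38 to 0.35 in their deviations from group means. At month 12 all 3 pairs exceeded 0.1, and there the fit with the replicate block called 0 members, as without it. Some results are not reported here.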

Additional observations from a re-analysis of the deposited data

Results flagged for a closer look

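The difference between irradiated and control livers changed with month for 13 of 82 members (15.9%), against 11% of all genes, by the F-test over the 5 months (edgeR quasi-likelihood test, adjusted over all genes tested). The adjusted p was 0.0107 for Rpl23a, 0.0110 for Rps3, 0.0112 for Rpl22, 0.0251 for Rps14, 0.0312 for Rps7, 0.0312 for Rps15a and 0.0339 for Rpl9. It was 0.0354 for Rpl7l1, 0.0372 for Rps6, 0.0440 for Rpl10, 0.0467 for Rps27a, 0.0479 for Rps4x and 0.04997 for Rpl7. Rpl23a went from higher in irradiated livers at month 1 to a value below 0 at months 9 and 12, and the other 12 were below 0 at month 2. Leaving out single libraries gave between 3 and 32 such members, and the Gm26917 covariate left 0. No outlier statistic was computed in groups of 3 livers.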

How the results depend on the processing

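Counts below are members past the adjusted threshold. The shares of all genes called under the same settings are not given here, so a change in a count need not be particular to the members. With the Gm26917 share as a covariate 0 members were called at months 1, 2 and 4, in the F-test over months, in the month 2 to 4 step of both arms and in the control step from month 9 to 12. At months 1, 2 and 4 the share did not overlap between the arms, so the share and the arm cannot be told apart there. Under that covariate the control medians turned to -0.29 for month 2 to 4 and 0.086 for month 9 to 12, while the control step from month 1 to 2 gave 75 calls; the cause was not tested. At month 1 the count was 2 with upper quartile factors, 4 with limma voom and 0 in the 6 compared libraries alone. At month 2 it was 59 both with limma voom and in the compared libraries alone. At month 4 it was 1 without a low-count filter, 5 with DESeq2, 11 with limma voom and 34 in the compared libraries alone. The F-test gave 24 with upper quartile factors, 21 with a filter of 1 CPM in 3 libraries, 31 with DESeq2 and 29 with limma voom. The control step from month 9 to 12 gave 17 without a filter and 63 with limma voom. The irradiated step from month 4 to 9 gave 1 with RLE factors, 1 with the filter at 1 CPM, 2 with DESeq2 and 1 with limma voom, and that from month 9 to 12 gave 1 without a filter and 4 with DESeq2.

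Leaving out 1 library gave 0 to 4 calls at month 1, 0 to 41 at month 2, 0 to 6 at month 4, 0 to 1 at month 9 and 3 to 32 in the F-test. It gave 21 to 77 in the control step from month 1 to 2, 12 to 49 in the control step from month 9 to 12, and 0 to 5 and 0 to 26 in the irradiated steps from month 4 to 9 and 9 to 12.

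Over all months 6 of 15 same-numbered pairs correlated above 0.1 and 5 of 15 correlated best with their own number. At month 4 all 3 did the latter, at 0.0987, 0.0753 and 0.114. At month 12 only replicate 2 did, at 0.346. The replicate block gave 2 calls at month 1, 36 at month 2, 3 at month 4 and 21 in the F-test. Counts near 1 CPM, as for Rpl24 and Rpl36al, limit what could be detected for those members.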
